A study of Homo sapiens with 17 samples.

Results

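The 31 genes described here make cholesterol, sense it, take it up, store it and move it between membranes. They were taken by name as genes of the pathway and looked up by GENCODE symbol in a table of read counts for 60662 genes, where all 31 were found, each at 1 gene identifier. The 7 mevalonate genes (ACAT2, HMGCS1, MVK, PMVK, MVD, IDI1 and FDPS) build isoprenoid units from acetyl-CoA. The 12 sterol genes (FDFT1, SQLE, LSS, CYP51A1, TM7SF2, LBR, MSMO1, NSDHL, HSD17B7, EBP, SC5D and DHCR7) turn those units into cholesterol, the 4 sensing genes (INSIG1, INSIG2, SREBF2 and SCAP) adjust the pathway to the sterol content of the endoplasmic reticulum, and the 8 remaining genes (SCARB1, SOAT1, NPC1, NPC2, STARD3, STARD4, OSBP and OSBPL8) serve uptake, storage and trafficking.

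RNA was sequenced from 17 cultures of Ishikawa cells, a line from a human endometrial adenocarcinoma used in place of normal endometrial epithelium. All were grown in medium with charcoal-stripped serum and treated for 24 h. The 3 control cultures received medium only, the 3 vehicle control cultures received a vehicle component named Nap with 70% ethanol, 2 cultures received Nap alone, and the 3 P4 cultures received Nap with progesterone (P4). Nap is not defined in the labels, and ethanol is named for the vehicle control only. A figure legend of the study gives another ethanol percentage for its vehicle control. The strength reached in the medium could not be settled. The treatment protocol lists P4 at 0.1 and 1.0 mg/ml. The sequenced P4 cultures are described elsewhere in the study at a single concentration in μg/ml, and which of the units holds could not be settled. The other 6 cultures received recombinant human PSAT1, an enzyme of serine synthesis, in sets of 3 of which only one set also received P4. The labels of these 6 disagree: the cultures whose count columns are named PSAT1_P4 carry the title and treatment of PSAT1 alone, and the cultures whose columns are named PSAT1 carry those of PSAT1 with P4. They are therefore called by their column names, and no difference between them is ascribed to P4. All cultures are of 1 cell line and are labelled as biological replicates, without a statement of how the replicates were separated, so p-values measure the spread between cultures of that line.

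Cholesterol is made from acetyl-CoA through mevalonate, which is built up to farnesyl diphosphate, joined into squalene and closed into the first sterol, lanosterol. A further chain of enzymes removes methyl groups and moves double bonds until cholesterol is reached. When sterols in the endoplasmic reticulum are scarce, SCAP carries the transcription factor SREBP2, encoded by SREBF2, to the Golgi, where it is cut and released to switch on genes of synthesis and uptake. INSIG proteins hold SCAP back when sterols are plentiful. P4 is itself a sterol derivative, and in other cultured cells high concentrations of it are known to hinder cholesterol movement out of lysosomes.

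Library totals lay between 4999521 counts (vehicle control culture 1) and 19704493 counts (control culture 2), and a single mitochondrial ribosomal RNA, MT-RNR2, took 20.2 to 27.1% of them. The lowest count of any member in any culture was 30, and 4 members (PMVK, CYP51A1, HSD17B7 and INSIG2) fell below 100 counts in at least 1 culture. Expression is given as CPM, counts divided by the TMM-scaled library total, and a gene was called when the edgeR quasi-likelihood test gave a Benjamini-Hochberg adjusted p under 0.05 over all genes tested. All 7 epithelial markers (EPCAM, KRT8, KRT18, KRT19, CDH1, CLDN3 and CLDN4) reached 10 counts in at least 1 culture of every group. The 5 immune and 4 endothelial markers summed to at most 1.93 and 1.76 CPM in any culture. The 7 stromal markers summed to 339 to 359 CPM in vehicle control and 125 to 177 CPM in P4 cultures, with COL1A2 the largest contributor, while DCN and PDGFRB were listed at 0 in the P4 cultures. The summed epithelial markers were also lower with P4, at 959 to 1099 CPM against 1228 to 1269 CPM, but the 7 markers did not move as one. KRT8 (−0.70 on the log2 scale), KRT18 (−0.34), KRT19 (−0.35) and CLDN4 (−1.42) fell, CDH1 rose by 0.24 (edgeR adjusted p = 0.0181), and EPCAM (0.07) and CLDN3 (−0.14) were not called. The part of these shifts in stromal or epithelial marker genes in the results on cholesterol genes was not tested. All cultures are of 1 cell line, so the marker sums are RNA levels in that line and give no number of stromal cells.

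Promoter sequence was searched because many of the members moved together. RefSeq promoter windows (GRCh38.p14, 250 bases before to 50 bases after a start, the first window listed for each gene) were matched by symbol for 27 of the 31 members, leaving SQLE, ACAT2, FDFT1 and SCARB1. The motif TCACNCCAC, a form of the sterol regulatory element that SREBP2 binds, was found on either strand in 1 of the 27 windows, that of SREBF2 itself, against 1.15% of 27305 windows of all genes. CCAAT, the box bound by NF-Y, was found in 18 of the 27 windows (66.7%), against 35.7% of windows of all genes and 36.4% of windows of 14895 protein-coding genes. GGGCGG, the box bound by SP1, was found in 25 of the 27 windows (92.6%), against 44.6% and 59.4%. The E-box CACGTG was found in 5 of the 27 (18.5%), against 7.43% and 8.94%. Both reference sets include genes that are not expressed in these cultures. Whether the members differ from other expressed genes in these motifs was not tested, so the shares do not show a shared regulator. A match is a run of letters and not a measured binding site. Only this form of the sterol regulatory element was searched, in the first window listed. A window without it is therefore not shown to lack such an element. The SREBF2 motif and 1 CCAAT match from each of the 4 members called with a change beyond 1 log2 unit in either of the 2 main comparisons described below, P4 against vehicle control and the PSAT1 sets, are shown 5′ to 3′ on the gene's strand, with the motif in capitals (ATTGG is CCAAT read on the other strand), at chr22:41832962-41832990, chrX:152830938-152830966, chr11:65111786-65111814, chr12:109573736-109573764 and chrX:48521766-48521794, all on the plus strand.
SREBF2: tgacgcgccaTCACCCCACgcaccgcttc
NSDHL: acgccgtgagcgCCAATtggctgagtcgt
TM7SF2: ccccgagcgccgATTGGctggtgtgctgg
MVK: tcgcgcgctctgATTGGctggcctgaagt
EBP: cttcgcttcaccATTGGctcgctccgtaa
The NSDHL window held 5 CCAAT matches, of which the one shown overlaps a match on the other strand, and the MVK window also held 5, the EBP window 3 and the TM7SF2 window 1. None of these 4 windows held TCACNCCAC or CACGTG. The window of LSS, whose decrease with P4 was between those of MVK and EBP, held 1 CCAAT and 1 CACGTG match. CCAAT was found in windows of members that rose and of members that fell in P4 against vehicle control. Of the members called higher, MSMO1, STARD4, NPC2, SC5D, INSIG1 and SREBF2 held it, and NPC1 and OSBPL8 did not. Of those called lower that had a window, LBR, PMVK and IDI1 did not hold it and the others did.

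The members differed in level by a factor of 38.8 in control cultures when CPM was divided by exon length in kilobases. HMGCS1, the enzyme that makes HMG-CoA, stood highest at 64.2 ± 4.03 CPM per kilobase (SD, n = 3), followed by MSMO1, a methyl sterol oxidase, at 59.5 ± 4.56 and IDI1, which isomerizes isopentenyl diphosphate, at 46.7 ± 3.52. The lowest were INSIG2 at 3.27 ± 0.724, HSD17B7 at 2.57 ± 0.130 and CYP51A1 at 1.65 ± 0.372 CPM per kilobase. Of the 30 neighbouring pairs in this order, 24 overlapped in their culture values, so the order is firm only in coarse steps.

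**Figure D1:**
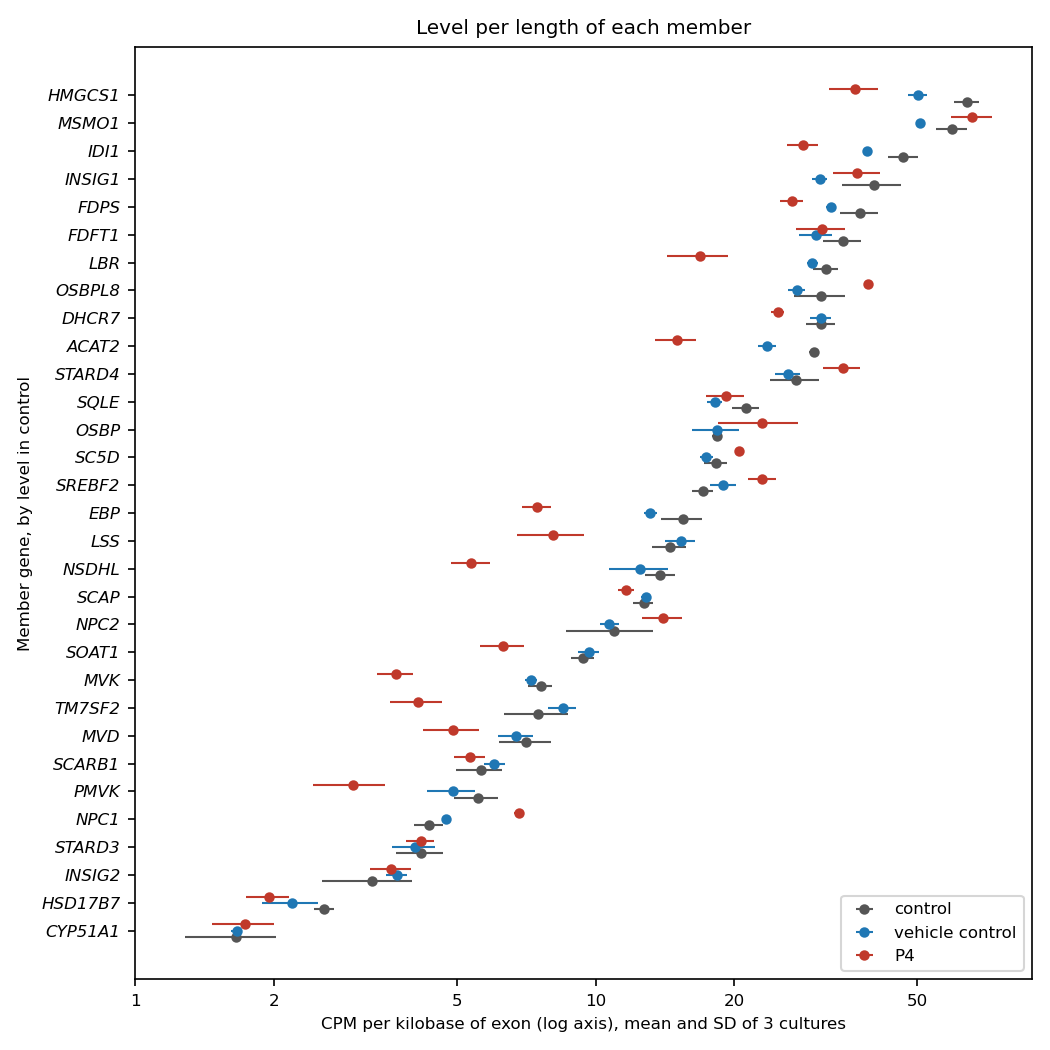
Level of each member per kilobase of exon (x axis, CPM per kilobase, log scale) in control (grey), vehicle control (blue) and P4 (red) cultures, as mean and SD of 3 cultures, ordered by the control level. The P4 points of NSDHL, EBP, LSS, MVK, TM7SF2 and ACAT2 lie to the left of the other 2 groups, and those of NPC1, SREBF2 and OSBPL8 to the right.

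The CYP51A1 level may carry a limit of the counting. In GENCODE 29, 79.4% of the CYP51A1 exon bases are also exon of another gene on the same strand, AC000120.2. Reads on shared bases are not assigned to either gene unless the counter is told to do so. The study counted reads with a later GENCODE release, in which the overlaps given here were not examined. Of the ACAT2 exon bases, 52.3% lie opposite exons of SOD2-OT1, SOD2 or TCP1, and the strand setting of the counting is not given in the sources used here, so the ACAT2 counts are uncertain in the same way. The overlap with genes on the other strand was 15.0% for HMGCS1, 14.8% for IDI1 and 18.6% for FDPS, and below 10% for the other 26 members. FDPS and HSD17B7 also have near-identical pseudogene copies, from which uniquely mapped reads cannot always be told.

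P4 and vehicle control cultures were compared to ask how these genes changed with P4. Most of the synthesis genes fell and most of the trafficking genes that changed rose. Of the 31 members, 22 were called, 14 lower and 8 higher, where 53.0% of 16540 genes tested were called, 26.5% lower and 26.6% higher. The median log2 fold change of the members was −0.15, against −0.01 over all genes tested. In 23 members the CPM of the 2 groups did not overlap, as was the case for 59.9% of all genes. With library totals in place of TMM scaling, 16 members were called lower and 4 higher, and the median of all genes moved to −0.13.

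All 7 mevalonate genes fell, with a median log2 fold change of −0.47 and a range from −0.98 to −0.29. MVK, mevalonate kinase (chr12:109573255-109598117), had 46.6, 45.7 and 48.5 CPM in the vehicle control cultures and 22.3, 26.4 and 23.0 CPM in the P4 cultures. The P4 cultures all lay far below the vehicle controls, at a log2 fold change of −0.98 ± 0.091 (SE, edgeR adjusted p = 3.12e-06), a 1.97-fold decrease. MVK in the control cultures was 50.9, 50.9 and 45.8 CPM and with Nap alone 44.6 and 50.4 CPM, so the untreated range was that of the vehicle control. PMVK, which adds the next phosphate, changed by −0.75 ± 0.187, and ACAT2, a cytosolic acetyl-CoA acetyltransferase that supplies acetoacetyl-CoA, by −0.66 ± 0.085. IDI1 (−0.47 ± 0.069), HMGCS1 (−0.46 ± 0.081), MVD, the decarboxylase that yields isopentenyl diphosphate (−0.45 ± 0.114), and FDPS, which makes farnesyl diphosphate (−0.29 ± 0.067), fell less.

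**Figure D2:**
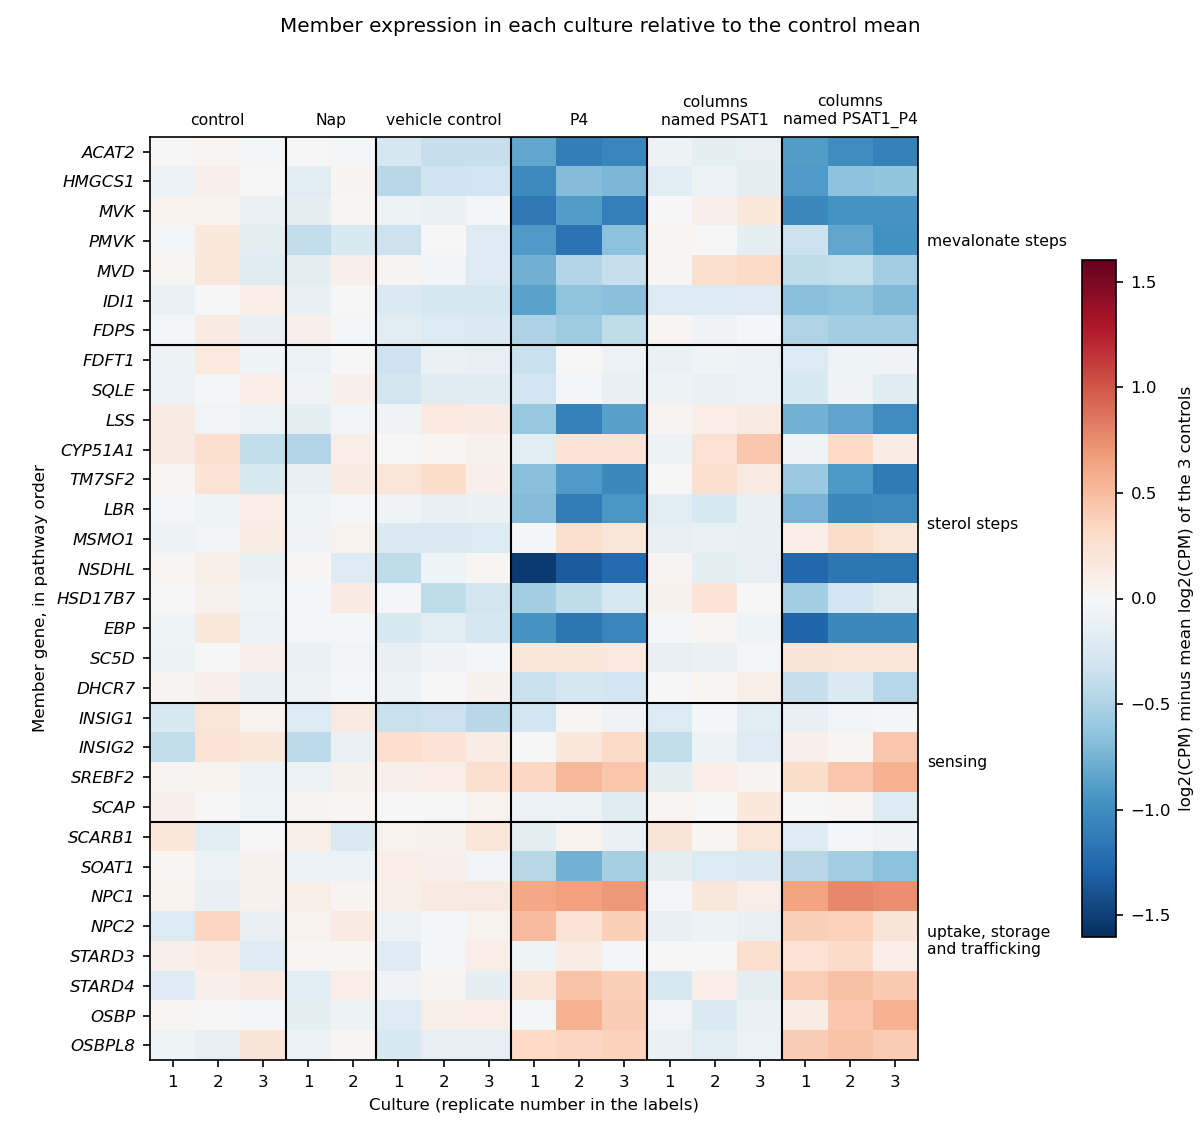
Expression of the 31 members (rows, in pathway order) in each of the 17 cultures (columns, by group), as log2(CPM) minus the mean log2(CPM) of the 3 control cultures. The P4 cultures and those whose columns are named PSAT1_P4 are blue (lower) over the mevalonate rows and over LSS, TM7SF2, LBR, NSDHL and EBP, and red (higher) over SREBF2, NPC1, STARD4 and OSBPL8.

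The sterol genes split. Of the 12, 6 fell, 2 rose and 4 were not called, with a median of −0.23 and a range from −1.25 to 0.37. NSDHL (chrX:152830967-152869729), which removes a carboxyl group at the C4 position of the sterol, had 20.9, 26.2 and 27.9 CPM in vehicle control and 9.56, 11.0 and 11.6 CPM in P4 cultures. The groups were far apart, and the change of −1.25 ± 0.123 (edgeR adjusted p = 5.08e-06), a 2.37-fold decrease, was the largest of any member. TM7SF2 (chr11:65111845-65116384), a sterol C14 reductase, had 29.1, 30.8 and 26.8 CPM in vehicle control and 16.0, 13.5 and 12.4 CPM with P4, a change of −1.06 ± 0.118 (edgeR adjusted p = 1.33e-05). LBR, the lamin B receptor, carries the same reductase activity in the inner nuclear membrane and fell by 0.82 on the log2 scale, so both genes for this step were lower. EBP (chrX:48521158-48528716), a sterol isomerase, had 31.3, 32.9 and 30.9 CPM in vehicle control and 19.3, 16.7 and 18.0 CPM with P4, a change of −0.83 ± 0.095 (edgeR adjusted p = 1.76e-05). The 2 groups did not overlap in EBP either. LSS, which closes squalene epoxide into lanosterol, changed by −0.94 ± 0.106, and DHCR7, which catalyses the last reduction in one branch of the pathway, by −0.32 ± 0.065.

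The 4 sterol genes that were not called include the pair that makes and oxidizes squalene. FDFT1, squalene synthase, had a mean of 161 ± 19.8 CPM with P4 and 157 ± 12.6 CPM in vehicle control (SD, n = 3 each). The nominal 95% interval of its log2 fold change ran from −0.14 to 0.20. SQLE, squalene epoxidase, lay at 82.6 ± 7.80 and 78.1 ± 3.09 CPM, with an interval from −0.08 to 0.22. The sign of both fold changes turned under upper-quartile scaling and under library totals. CYP51A1 had an interval from −0.27 to 0.38 and HSD17B7 from −0.42 to 0.15, both among the members with fewest counts. Counts thus fell at steps before FDFT1 and SQLE and at LSS after them, and the intervals of FDFT1 and SQLE leave room for a small change only.

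MSMO1 and SC5D rose against the vehicle control. MSMO1, which oxidizes the C4 methyl groups that NSDHL later removes as carbon dioxide, had 191 ± 19.4 CPM with P4 and 147 ± 0.944 CPM in vehicle control, a change of 0.37 ± 0.075 (edgeR adjusted p = 0.00118). SC5D, a sterol C5 desaturase, had 114 ± 1.21 and 97.0 ± 3.19 CPM, a change of 0.22 ± 0.063 (edgeR adjusted p = 0.00988), and its adjusted p was 0.085 with upper-quartile scaling and 0.200 with library totals. Against the control cultures neither was called, at 0.16 ± 0.099 for MSMO1 and 0.18 ± 0.090 for SC5D.

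Among the sensing genes, SREBF2 (chr22:41833079-41907308) and INSIG1 (chr7:155297776-155310235) were called higher and INSIG2 and SCAP were not called. SREBF2 had 137, 139 and 154 CPM in vehicle control, 162, 186 and 175 CPM with P4 and 133, 134 and 121 CPM in control cultures. Every P4 culture was above every vehicle control and control culture. The change was 0.27 ± 0.071 against vehicle control (edgeR adjusted p = 0.00603, and 0.058 with library totals) and 0.45 ± 0.092 against control (edgeR adjusted p = 0.000501). INSIG1 had 118, 148 and 140.3 CPM with P4, 114, 115 and 107 CPM in vehicle control and 123, 166 and 151 CPM in control cultures. It was the vehicle control that stood low, with all 3 cultures under every P4 and control culture, and P4 cultures overlapped the controls. The INSIG1 change was 0.27 ± 0.083 against vehicle control (edgeR adjusted p = 0.0171) and −0.10 ± 0.113 against control (edgeR adjusted p = 0.460). Its call against vehicle control was lost without P4 culture 3 (edgeR adjusted p = 0.071), without vehicle control culture 2 (0.053) or 3 (0.095), and with upper-quartile scaling (0.070) or library totals (0.132).

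INSIG2 (chr2:118088452-118110997) had 12.8, 14.2 and 15.7 CPM with P4, 15.3, 14.7 and 13.8 CPM in vehicle control, 9.62, 14.8 and 14.3 CPM in control cultures and 9.50 and 11.7 CPM with Nap alone. The P4 and vehicle control cultures overlapped, and the nominal 95% interval of their log2 fold change ran from −0.26 to 0.20. SCAP (chr3:47413694-47477126) had 76.3, 77.1 and 71.6 CPM with P4, 81.4, 81.6 and 85.0 CPM in vehicle control and 86.3, 81.1 and 78.0 CPM in control cultures. The P4 values of SCAP were all below those of the vehicle control by a small margin, a change of −0.15 ± 0.069 (edgeR adjusted p = 0.087). It was called without P4 culture 1 (−0.16, edgeR adjusted p = 0.0487), with upper-quartile scaling (−0.24, 0.0114) and with library totals (−0.27, 0.00641).

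**Figure D3:**
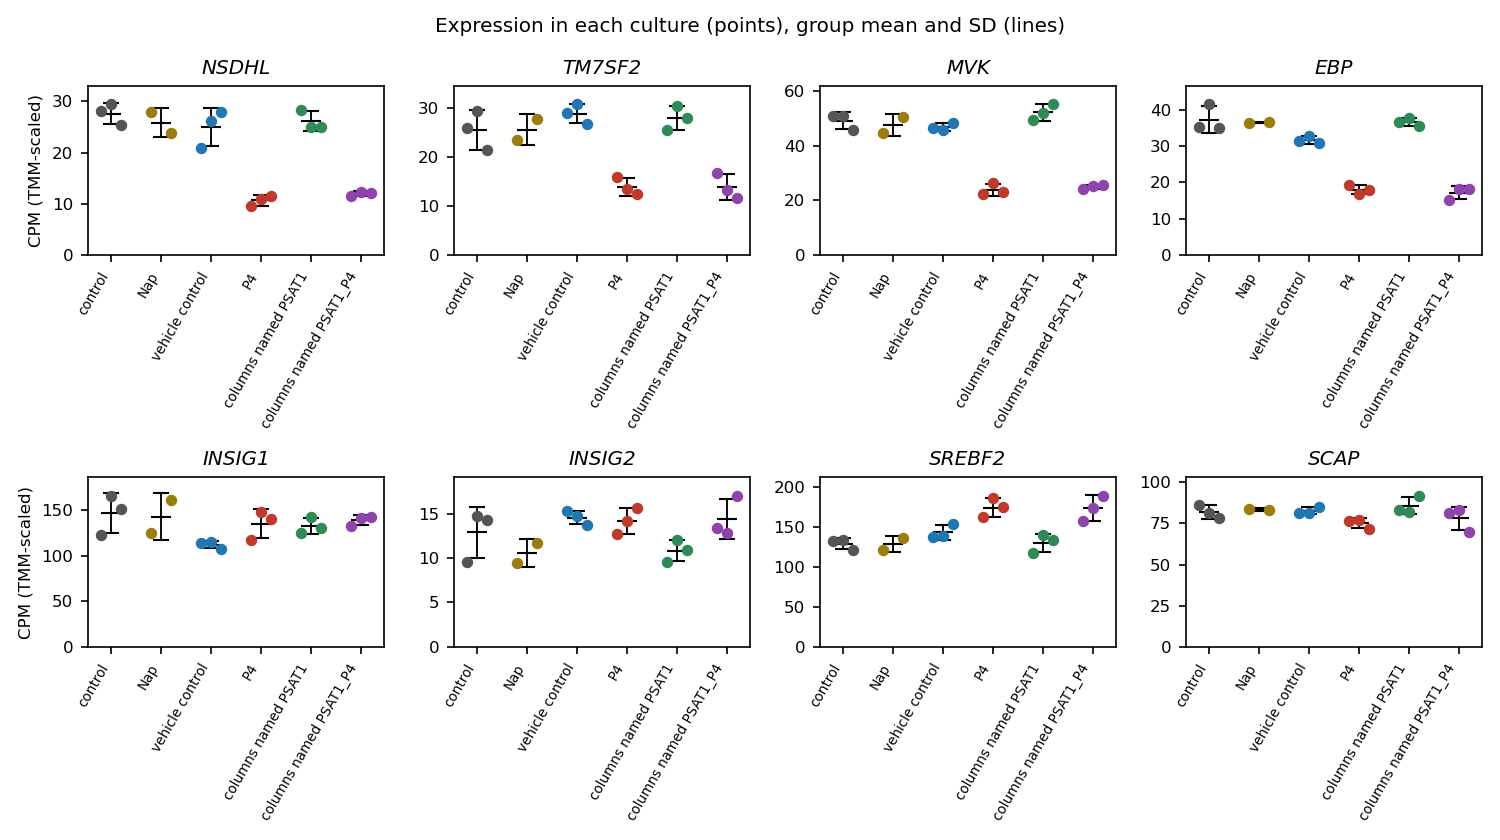
CPM (y axis, from 0) of NSDHL, TM7SF2, MVK, EBP and the 4 sensing genes in each culture (points) by group, with the group mean and SD (black lines). NSDHL, TM7SF2, MVK and EBP are lower in every P4 culture and every culture whose column is named PSAT1_P4 than in all other cultures, and SREBF2 is higher in those 6 cultures than in all others.

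Of the 8 uptake, storage and trafficking genes, 4 rose, 1 fell and 3 were not called, with a median log2 fold change of 0.34. NPC1 and NPC2, which together pass cholesterol out of the lysosome, rose by 0.52 ± 0.069 (edgeR adjusted p = 5.58e-05) and 0.37 ± 0.096 (edgeR adjusted p = 0.0059), and NPC1 had 68.8 ± 1.75 CPM with P4 against 47.8 ± 0.910 CPM in vehicle control. The NPC2 call was lost with library totals (edgeR adjusted p = 0.0576). OSBPL8, which exchanges phosphatidylserine for phosphoinositide between the endoplasmic reticulum and the plasma membrane, rose by 0.51 ± 0.058, from 252 ± 10.8 to 360.0 ± 6.38 CPM. STARD4, a soluble sterol carrier, rose by 0.39 ± 0.078. SOAT1, which esterifies cholesterol for storage, was the only one of the 8 called lower, at 44.1 ± 4.83 CPM with P4 and 67.7 ± 3.67 CPM in vehicle control, a change of −0.62 ± 0.092 (edgeR adjusted p = 0.000123). OSBP, which moves sterol to the Golgi, had 126 ± 24.9 and 101 ± 11.8 CPM, and its change of 0.31 ± 0.126 was not called (edgeR adjusted p = 0.0555) in the fit of these 2 groups. OSBP was called with DESeq2 (adjusted p = 0.0288), with all 6 groups in the edgeR fit (0.0321), with no filter on low counts (0.000528), with the replicate number as a block (0.00374) and without P4 culture 1 (0.46, edgeR adjusted p = 1.59e-05). SCARB1, a lipoprotein receptor, changed by −0.18 ± 0.085 and was not called unless P4 culture 2 was left out (−0.24, edgeR adjusted p = 0.0263) or the scaling was upper-quartile (−0.27, 0.0135) or library totals (−0.31, 0.0068), and STARD3, a sterol carrier of late endosomes, had an interval from −0.19 to 0.22.

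The vehicle control is a reference of its own, since its cultures differed from the control cultures in 22.6% of 16673 genes tested, 10.7% lower and 11.9% higher. Of the members, 4 were called and all were lower in the vehicle control, namely INSIG1 by −0.36 ± 0.090, HMGCS1 by −0.32 ± 0.072, ACAT2 by −0.31 ± 0.072 and IDI1 by −0.23 ± 0.073 on the log2 scale. That count rested on which control culture was used, at 9 members without control culture 2 and 6 without control culture 1. Nap alone and control cultures differed in 0 members and in 0 of 17166 genes (217 genes at an unadjusted edgeR p under 0.05, 1 gene called by DESeq2, and 42 genes but 0 members called with the replicate number as a block), with only 2 Nap cultures. Against Nap alone, the vehicle control had 10 members called, 7 lower and 3 higher, where 23.8% of genes tested were called, 11.2% lower and 12.7% higher, but the number was 3 without vehicle control culture 2 or 3.

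P4 cultures were also compared with the control and Nap cultures. The same P4 cultures enter these comparisons, so they are given side by side and not as separate evidence. Against control, 21 members were called, 15 lower and 6 higher (54.8% of genes called, 28.0% lower and 26.8% higher), and against Nap alone 22, 15 lower and 7 higher (49.7% of genes called, 24.9% lower and 24.8% higher). Without Nap culture 1 the number was 13 members and 5606 of 17773 genes, but only 1 Nap culture is then left and is assumed to vary as the P4 cultures do. NSDHL changed by −1.25, −1.35 and −1.26 against vehicle control, control and Nap. ACAT2 changed by −0.66, −0.97 and −0.97 and HMGCS1 by −0.46, −0.80 and −0.75, and both were among the genes lower in the vehicle control than in control. MVK (−0.98, −1.03 and −0.99) and NPC1 (0.52, 0.67 and 0.59) depended little on the reference.

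The 6 cultures that received PSAT1 give a comparison that shares no culture with P4 against vehicle control. Between the columns named PSAT1_P4 and those named PSAT1, 25 members were called, 16 lower and 9 higher in the columns named PSAT1_P4, where 62.3% of 16586 genes tested were called, 31.6% lower and 30.7% higher. With library totals 19 were lower and 6 higher, and the median of all genes moved to −0.22. All 7 mevalonate genes were lower, with a median of −0.64, and 7 of the 12 sterol genes were lower and 2 higher. NSDHL had 11.6, 12.4 and 12.2 CPM in the columns named PSAT1_P4 and 28.4, 25.0 and 25.1 CPM in those named PSAT1, a change of −1.11 ± 0.105 (edgeR adjusted p = 2.11e-08). MVK had 24.1, 25.3 and 25.6 against 49.3, 52.0 and 55.2 CPM, a change of −1.06 ± 0.082. EBP had 15.3, 18.2 and 18.2 against 36.7, 37.7 and 35.5 CPM, a change of −1.08 ± 0.096, and TM7SF2 had 16.9, 13.4 and 11.6 against 25.6, 30.4 and 28.0 CPM, a change of −1.0 ± 0.12. In each of these genes the 2 sets were far apart. SREBF2 had 157, 174 and 189 against 117, 139 and 134 CPM, a change of 0.42 ± 0.078 (edgeR adjusted p = 0.000124).

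INSIG2 was called in this comparison, at 13.4, 12.9 and 17.1 against 9.62, 12.0 and 10.9 CPM, a change of 0.41 ± 0.136 (edgeR adjusted p = 0.0123). The sets did not overlap, but the call was lost without PSAT1_P4 column 3 (edgeR adjusted p = 0.0899), with upper-quartile scaling (0.0522) and with library totals (0.204). INSIG1 had 133, 141 and 143 against 125, 143 and 130.2 CPM, a change of 0.07 ± 0.067 that was not called and turned negative under upper-quartile scaling and library totals. SCAP had 81.1, 82.9 and 70.0 against 83.4, 82.0 and 91.9 CPM, a change of −0.13 ± 0.073 that was not called (edgeR adjusted p = 0.126) but was with upper-quartile scaling (−0.23, 0.00921), library totals (−0.33, 0.000985) and a filter of 10 counts in each library (−0.17, 0.0490). Among the trafficking genes NPC1 (0.64 ± 0.075), OSBPL8 (0.55 ± 0.057), STARD4 (0.52 ± 0.077), OSBP (0.51 ± 0.091) and NPC2 (0.43 ± 0.084) were higher and SOAT1 (−0.35 ± 0.075) and SCARB1 (−0.23 ± 0.082) were lower in the columns named PSAT1_P4. SCARB1 lost its call without PSAT1_P4 column 1 (edgeR adjusted p = 0.107) and without PSAT1 column 1 (0.0848) or 3 (0.0940), as well as with DESeq2 (adjusted p = 0.0537) and with all 6 groups in the edgeR fit (0.0742). Of the sterol genes, FDFT1 (−0.02) and SQLE (−0.06) were not called, but with library totals both were called lower, at −0.22 (edgeR adjusted p = 0.00679) and −0.26 (0.00323), and SQLE also with upper-quartile scaling (−0.16, 0.0422). MSMO1 (0.32) and SC5D (0.29) were called higher, and both calls were lost with library totals (edgeR adjusted p = 0.108 and 0.22).

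**Figure D4:**
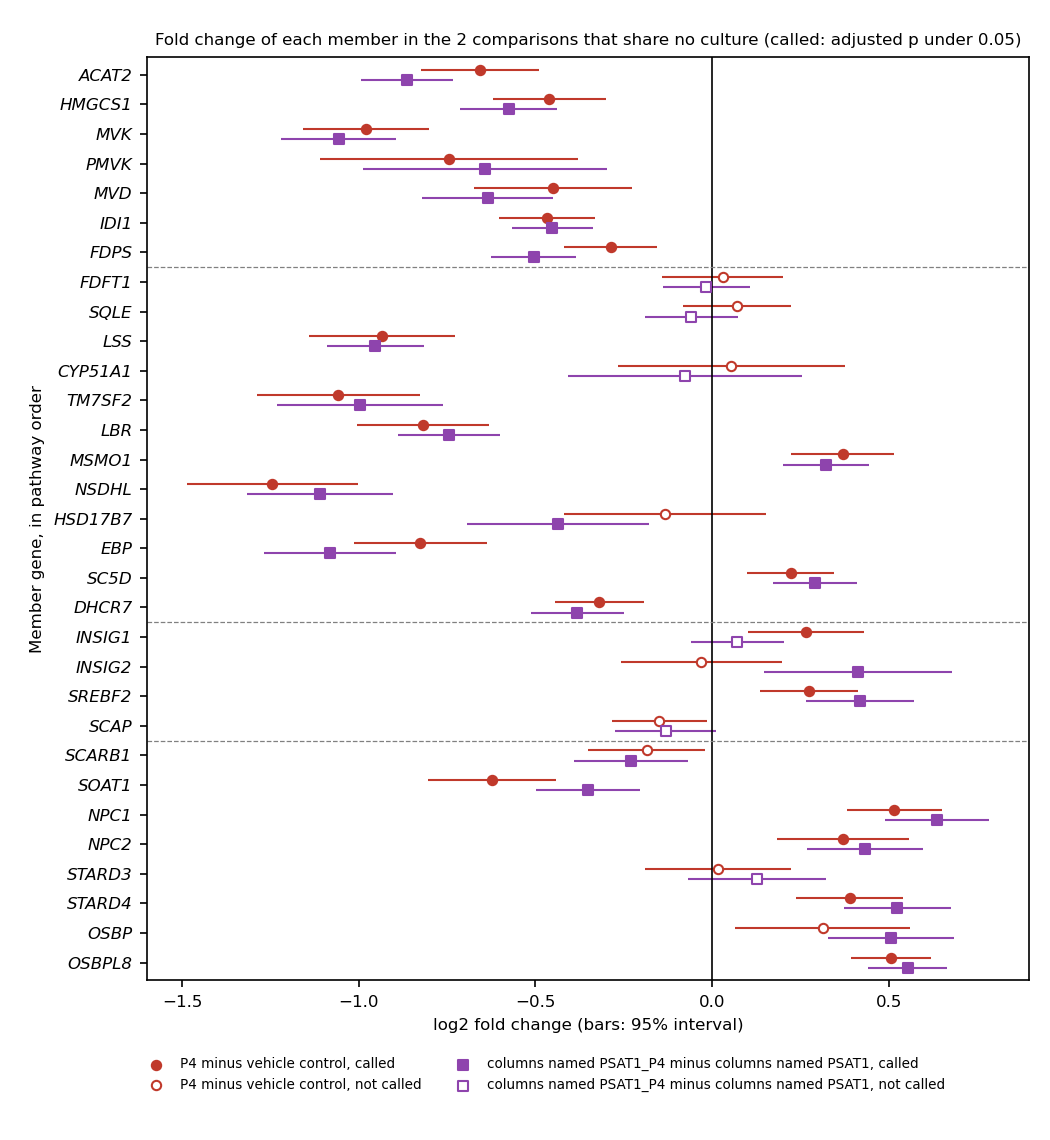
Log2 fold change (x axis) of each member, in pathway order, in P4 minus vehicle control (red circles) and in the columns named PSAT1_P4 minus those named PSAT1 (purple squares), with 95% intervals as bars. Filled symbols are genes with an edgeR adjusted p under 0.05. The 21 members called in both comparisons lie on the same side of 0 in both.

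Across these 2 comparisons, 21 members were called in both and all 21 had the same direction, which is 95.5% of those called in the first and 84.0% of those called in the second. Over the 16158 genes tested in both, 7392 were called in both, which is 85.4% and 72.8% of those called in each, and 99.4% of the 7392 had the same direction, so agreement in direction is not particular to the members. INSIG1 was called only against the vehicle control, and HSD17B7, INSIG2, SCARB1 and OSBP only between the PSAT1 sets. The difference between the 2 fold changes was tested as an interaction. It called 0 members, where 1.41% of 17363 genes were called and DESeq2 also called 0 members. At an unadjusted edgeR p under 0.05 it gave 3 members, namely INSIG2 (a difference of 0.45 ± 0.183), SOAT1 (0.28 ± 0.119) and FDPS (−0.21 ± 0.088), with adjusted p of 0.232, 0.254 and 0.252. In simulated counts the same test recovered 26 of 98 differences of 0.5 log2 units and 76 of 102 of 1 unit. The changed genes were drawn from all genes tested, with a single dispersion of 0.0064, so these are not recovery rates for the members. Differences of the size seen here could still be missed.

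No difference was detected between the columns named PSAT1_P4 and the P4 cultures in any member. No member was called or reached an unadjusted p under 0.05, 29 of the 31 overlapped, and the log2 differences lay between −0.07 and 0.20. Over all 15621 genes tested, 0 were called by edgeR or DESeq2, 199 had an unadjusted edgeR p under 0.05, and 5.92% did not overlap. The columns named PSAT1 likewise differed from the control cultures in 0 members and in 0 of 17214 genes by edgeR or DESeq2 (1004 genes at an unadjusted edgeR p under 0.05), with member differences from −0.23 to 0.20, of which 3 had an unadjusted p under 0.05. In 7 members these 2 groups did not overlap, against 11.7% of all genes. Against control, the columns named PSAT1_P4 had 23 members called, 15 lower and 8 higher (60.2% of genes called, 30.2% lower and 30.0% higher), and against the columns named PSAT1 the P4 cultures differed in 24 members (57.1% of genes called, 28.3% lower and 28.8% higher in the columns named PSAT1), of which 15 were higher and 9 lower in those columns.

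Other genes of sterol and isoprenoid metabolism were read from lists of 45 genes, of which 42 were tested. In P4 against vehicle control, 20 rose, 7 fell and 15 were not called, with a median of 0.16. Over all 16540 genes tested, 26.6% were called higher and 26.5% lower. Whether any of the lists departs from these shares was not tested. Of 11 other sensing genes, 4 rose and none fell, among them ERLIN1, a lipid raft protein of the endoplasmic reticulum (0.65 ± 0.086, edgeR adjusted p = 5.30e-05). Of 21 other trafficking and uptake genes, 10 rose and 6 fell. OSBPL6, an oxysterol-binding protein relative, rose by 1.15 ± 0.079 (edgeR adjusted p = 2.78e-07), and VAPA, the endoplasmic reticulum anchor of OSBP, by 0.58 ± 0.062. TMEM97, a membrane protein that binds NPC1, changed by −1.11 ± 0.102 (edgeR adjusted p = 2.73e-06), and LRP8, a lipoprotein receptor, by −0.64 ± 0.091. Of 10 other isoprenoid genes, 6 rose and 1 fell, and the subunits of decaprenyl diphosphate synthase, which makes the side chain of ubiquinone, moved apart: PDSS1 changed by −0.84 ± 0.167 (edgeR adjusted p = 0.0011) and PDSS2 by 0.34 ± 0.099 (edgeR adjusted p = 0.0114). Between the PSAT1 sets the changes of these 7 genes were 0.93 for ERLIN1, 1.42 for OSBPL6, 0.49 for VAPA, −1.25 for TMEM97, −0.62 for LRP8, −1.18 for PDSS1 and 0.40 for PDSS2, and all were called. Of all genes tested in that comparison, 62.3% were called.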

How the data were processed

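Stranded total RNA libraries of 17 Ishikawa cultures were sequenced from a single end. Adapters were removed by the authors with cutadapt, reads were mapped with Subread, and the authors deposited whole-number counts per gene from featureCounts, without normalization. The strand setting and the tool versions are not given in the sources used here. The number of columns not used was 0. From these counts, edgeR 4.0.16 was used with TMM scaling and with filterByExpr at a minimum count of 10, and robust quasi-likelihood models were fitted with only the compared groups in each fit and no covariate. Intervals are 1.96 standard errors on each side of the log2 fold change. DESeq2 1.42.0 was an alternative. Names, positions and exon lengths came from GENCODE 29 on GRCh38, while the study counted reads with a later GENCODE release. Of the 60662 gene identifiers, 43963 had the same version in GENCODE 29. Library totals were between 4999521 and 19704493. Counts simulated from P4 and vehicle control means gave calls for 52 of 91 genes changed by 0.5 log2 units and 88 of 109 changed by 1, and for 4 unchanged genes of 16414. No other genes were changed in that simulation, and a single dispersion of 0.0064 was used. In the real comparison 53.0% of genes were called, so these are not recovery rates for it or for the members.

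The members and lists were chosen with earlier results of these data known. Values in every culture are given for members called beyond 1 log2 unit in either main comparison and for the 4 sensing genes. In each list of other genes the 2 that rose and the 2 that fell at the lowest adjusted p are named, except 2 genes that are not reported here. The other settings tried were RLE and upper-quartile scaling, DESeq2, the replicate number as a block, all 6 groups fitted together, no filter, a filter of 10 counts in each library, and leaving out each culture.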

Additional observations from a re-analysis of the deposited data

How the results depend on the processing

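In each of the 12 comparisons the number of members called was recomputed under every setting. In P4 against vehicle control it lay between 21 and 24 with single cultures left out, and between the PSAT1 sets at 24 or 25. The number moved by over 1.5 times in 3 comparisons. Vehicle control against Nap alone, with 10 members, gave 5 with DESeq2, 1 with all 6 groups in the fit, 6 with the replicate number as a block, and 3 to 9 with single cultures left out. Vehicle control against control, with 4, gave 3 to 9, and P4 against Nap alone, with 22, gave 13 to 23. With 1 Nap culture left out, the other is assumed to vary as the cultures it is compared with. The causes were not tested.

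The fold change of each member was recomputed in P4 against vehicle control and between the PSAT1 sets, where signs turned only for members that were not called. In P4 against vehicle control the log2 fold change under upper-quartile scaling and under library totals was −0.034 and −0.064 for CYP51A1, −0.059 and −0.092 for FDFT1, −0.018 and −0.051 for SQLE, and −0.070 and −0.10 for STARD3. With single cultures left out, FDFT1 ranged from −0.039 to 0.12, STARD3 from −0.037 to 0.090 and INSIG2 from −0.096 to 0.047. Between the PSAT1 sets, INSIG1 was −0.028 and −0.13 under those scalings, STARD3 −0.075 under library totals, and FDFT1 0.0098 with all 6 groups in the fit. With single cultures left out, CYP51A1 ranged from −0.19 to 0.050 and FDFT1 from −0.037 to 0.046. Library totals without scaling factors were chosen after seeing the data.

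Same-numbered cultures did not deviate together in the 2 main comparisons: for P4 and vehicle control the 3 correlations over 15657 genes lay between −0.04 and 0.05, and for the PSAT1 sets between −0.10 and −0.01. The main fits took the replicate number as a number only. As a block it gave 23 members in P4 against vehicle control, OSBP being added, and 25 between the PSAT1 sets, and it moved no count by over 1.5 times but that of vehicle control against Nap alone. In control and Nap cultures, with 2 pairs, the correlations were 0.31 and 0.35. The deviations of the 2 Nap cultures from their own mean mirror each other, so these are not 2 separate values. For the columns named PSAT1_P4 and the P4 cultures the correlations ran from −0.05 to 0.40, and for the columns named PSAT1 and control from −0.11 to 0.22. As a block, the replicate number gave 42 genes called in Nap against control. It gave 29 in the columns named PSAT1 against control and 1 in those named PSAT1_P4 against P4, with 0 members in each.

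Depth limits PMVK, CYP51A1, HSD17B7 and INSIG2 most, with counts under 100 in at least 1 culture. Intervals cover the spread between these cultures.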
